A study of Homo sapiens with 16 samples.

Results

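Caveolae are small flask-shaped pits of the plasma membrane. Their coat is built from caveolins, which insert into the membrane, and from cavins, cytosolic proteins that gather on the caveolin scaffold, with CAVIN1 needed for the pit to form. EHD2, an ATPase at the neck, holds the pits at the cell surface, and PACSIN2, an F-BAR protein, helps to shape the neck. The genes described here are PTRF, SDPR and PRKCDBP, the older symbols of CAVIN1, CAVIN2 and CAVIN3, together with CAV1, CAV2, EHD2 and PACSIN2. They are 7 of the 26485 genes in the count table. They were picked by symbol, as caveola components, because PTRF had no counts in PC3 cells, so the difference between the cell lines in these genes is given as a description with no test.

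RNA was sequenced from 2 cell lines, both labelled wild type. PC3 is a prostate cancer line and HeyA8 an ovarian cancer line labelled as derived from HEY-T30. Each line was mock-treated or transfected with siNT1 (a non-targeting duplex), siGGGGGC or siCAG, and RNA was taken 24 and 48 h later, which gave 16 libraries, 1 for each line, treatment and time point. siGGGGGC is named for bases 2 to 7 of its guide strand and is called siMxy in the sample titles. siCAG is known here by its name only. The dose is 1 nM in the labels, but the study's methods give another one. The 24 h and the 48 h library of a treatment served as its replicates, so every treatment mean below is over n = 2. The spread between these 2 libraries contains any change between the time points. The fits behind the SEs and p-values had a term for time point, which takes up a change shared by the treatments. Nothing in the labels says that the wells were separate cultures, and the p-values measure only the spread between these libraries. Library totals lay between 27937092 and 29971612 counts in PC3 and between 29128446 and 31790209 counts in HeyA8.

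The lines carried some of the markers of their tissues of origin and lacked others. In PC3, KLK3 and KLK2, the kallikreins of prostate epithelium, were at 0 counts in all 8 libraries, while HOXB13, a prostate homeobox gene, had 2400 to 15762 counts and TMPRSS2 485 to 1112. In HeyA8, PAX8, a factor of Müllerian epithelium, had 1838 to 6680 counts and MSLN 299 to 1378, but MUC16 stayed at 5 or fewer and EMX2 at no more than 1. Markers of cell types rich in caveolae were read as well. The 4 endothelial markers (PECAM1, CDH5, VWF and TEK) summed to 43.2 to 143.5 normalized counts in PC3, where PECAM1 had the highest mean, and to 119.1 to 361.4 in HeyA8, where CDH5 had. Of the 4 adipocyte markers, ADIPOQ and LEP were at 0 in all 16 libraries, PLIN1 reached 61 counts, and FABP4 had 655 to 1717 counts in PC3 and at most 6 in HeyA8. The striated muscle markers CAV3, MYH7, DES and TNNT2 did not exceed 22 counts in any library, and the leukocyte marker PTPRC did not exceed 12. Some general epithelial and mesenchymal genes differed between the lines. The 4 mesenchymal genes (VIM, CDH2, ZEB1 and FN1) were counted in both and summed to 41275 to 51762 normalized counts in PC3 and 235250 to 556172 in HeyA8. VIM had 24100 to 33078 counts in PC3 and 124593 to 222814 in HeyA8, FN1 12316 to 16888 and 36021 to 330197, and ZEB1 196 to 1625 and 2337 to 5799, but CDH2 overlapped, with 3929 to 8074 in PC3 and 4003 to 5769 in HeyA8. Over the libraries of each line VIM had the highest mean of the 4, not scaled to length. Of the 6 epithelial genes, which summed to 24299 to 55745 normalized counts in PC3 and 23633 to 76314 in HeyA8 (with KRT7 and KRT8 the highest on average, not scaled to length), KRT7, KRT8 and KRT18 each had at least 3590 counts in every library. In contrast, CDH1 had 232 to 1154 counts in PC3 and at most 3 in HeyA8, EPCAM 421 to 938 and 10 to 48, and KRT19 4509 to 14929 and 2 to 14. The part of all these genes in the results below was not tested.

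Of the 7 genes, the largest differences between the lines were in the cavins and in EHD2, beside the epithelial and mesenchymal differences given above. PTRF, on the minus strand of chr17:42402449-42423320 (hg38), had 0 counts in all 8 PC3 libraries. In mock-treated HeyA8 it had 25088 counts at 24 h and 24859 at 48 h, and over all 8 HeyA8 libraries it ranged from 12084 to 33476. Set against a floor of 3 counts per library, PTRF was at least 9945-fold higher in mock-treated HeyA8 than in mock-treated PC3. PRKCDBP, the cavin named for its binding of protein kinase C delta (minus strand of chr11:6318946-6320510), was likewise at 0 in every PC3 library. Its mock-treated HeyA8 libraries had 335 and 316 counts, and against the same floor PRKCDBP was at least 129.6-fold higher there. EHD2, on the plus strand of chr19:47713344-47743134, was not absent from PC3 but low, with 23 and 26 counts in the mock libraries against 3471 and 3569 in HeyA8. After normalization over the 16 libraries, its mean was 172-fold higher in HeyA8. SDPR, the cavin that binds phosphatidylserine (minus strand of chr2:191834306-191847280), was scarce in both lines, at 14 and 18 counts in mock-treated PC3 and 101 and 109 in mock-treated HeyA8, a 7.86-fold difference of the normalized means. These 4 genes had no overlap between the lines in any treatment. The share of all genes without such overlap was not worked out, so nothing is read from this.

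The caveolins and PACSIN2 stood much closer. CAV1, the main structural protein of caveolae outside muscle (plus strand of chr7:116524785-116561185), had 10026 and 10199 normalized counts on the 16-library scale in mock-treated PC3, and 19504 and 27515 in mock-treated HeyA8. That is a 2.32-fold difference, carried by the same direction at 24 and 48 h. Its neighbour CAV2, which needs CAV1 to reach the cell surface (plus strand of chr7:116499601-116508541), had 2487 and 1779 normalized counts in PC3 and 3218 and 3354 in HeyA8, 1.54-fold apart. PACSIN2, on the minus strand of chr22:42869766-43015178, had 1558 and 1516 in PC3, against 1868 and 1889 in HeyA8, 1.22-fold apart. Thus 4 of the 7 genes were more than 4-fold apart between the mock-treated lines on a log2 scale with 1 added to each mean, all higher in HeyA8, and 3 were not. Among the 14431 genes with a mean of at least 10 normalized counts over the 4 mock libraries, 20.5% were more than 4-fold apart. Since PTRF was chosen on this contrast, nothing is read from the count.

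**Figure D1:**
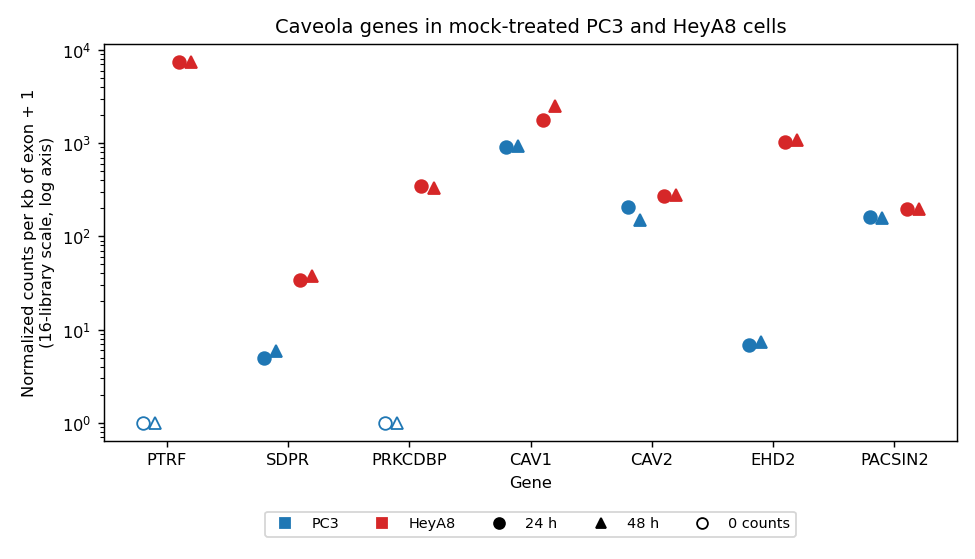
Normalized counts per kb of annotated exon plus 1 (log axis, 16-library scale) of the 7 genes in the mock-treated libraries, with PC3 in blue, HeyA8 in red, circles for 24 h and triangles for 48 h. Open symbols mark 0 counts, which only PTRF and PRKCDBP show, in PC3, whereas CAV1, CAV2 and PACSIN2 lie close together in the lines.

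Levels of different genes can be compared only per length, here per kb of the exon length given in the count table, which joins all annotated exons of a gene. On this scale the order in mock-treated HeyA8 was PTRF at 7395 normalized counts per kb, CAV1 at 2140, EHD2 at 1057, PRKCDBP at 338, CAV2 at 272.5, PACSIN2 at 194.6 and SDPR at 34.8. PTRF held place 148 of the 26485 genes. Neighbours in this order did not overlap between their 24 and 48 h libraries, the nearest being PRKCDBP, at 347 and 329, and CAV2, at 267 and 278. In mock-treated PC3 the order was CAV1 at 920.3, CAV2 at 176.9, PACSIN2 at 159.3, EHD2 at 6.15 and SDPR at 4.42, with PTRF and PRKCDBP at 0. CAV2, at 206 and 148, overlapped PACSIN2, at 161 and 157. PC3 cells therefore held transcripts of both caveolins and of PACSIN2 with 0 counts of PTRF and PRKCDBP, and CAV1 stood at place 1380 of all genes.

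The genome around PTRF was then examined gene by gene. The 13 other genes of a 421.2 kb run at chr17:42101406-42522579 had 10 or fewer counts in every PC3 library, and 13 of the 14, PTRF included, had 0 in all 8. In HeyA8, 8 of the 14 had means over 100 normalized counts. Among them were RAB5C, a GTPase of early endosomes, with 4956 to 8400 counts per HeyA8 library, STAT3, a transcription factor of cytokine signalling, with 2352 to 4410, and its relatives STAT5B, with 1218 to 1794, and STAT5A, with 144 to 445. KAT2A, a histone acetyltransferase, had 1120 to 2574 counts in HeyA8, and GHDC 73 to 213. DHX58, an RNA helicase of the antiviral response, had 25 to 119. HSPB9, KCNH4, HCRT, MIR548AT and MIR5010 were at 8 or fewer counts in both lines, so that their zeros in PC3 do not separate the lines. ATP6V0A1, a subunit of the vacuolar proton pump and the next gene after PTRF, was the exception to the zeros, with 0 to 6 counts per PC3 library and 725 to 1996 per HeyA8 library.

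Beyond both ends of the run, genes were counted in PC3 again. DNAJC7 had 2010 to 2848 counts and NKIRAS2 756 to 1322 on the left, with ZNF385C between them and the run at 3 to 17 in PC3 and 0 to 3 in HeyA8. On the right, NAGLU had 200 to 318 counts, HSD17B1 287 to 506 and COASY 1704 to 2477. Of the 10770 genes with means over 100 normalized counts in HeyA8, 38 (0.353%) were at 0 in all 8 PC3 libraries, and 7 of these 38 lay in this run. When only genes over 100 in HeyA8 were lined up along the chromosomes, KAT2A to PTRF was the longest series at 0 in PC3 with 7 genes, and the next longest held 2. The counts alone do not say whether the sequence is missing, silent or not counted in PC3.

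**Figure D2:**
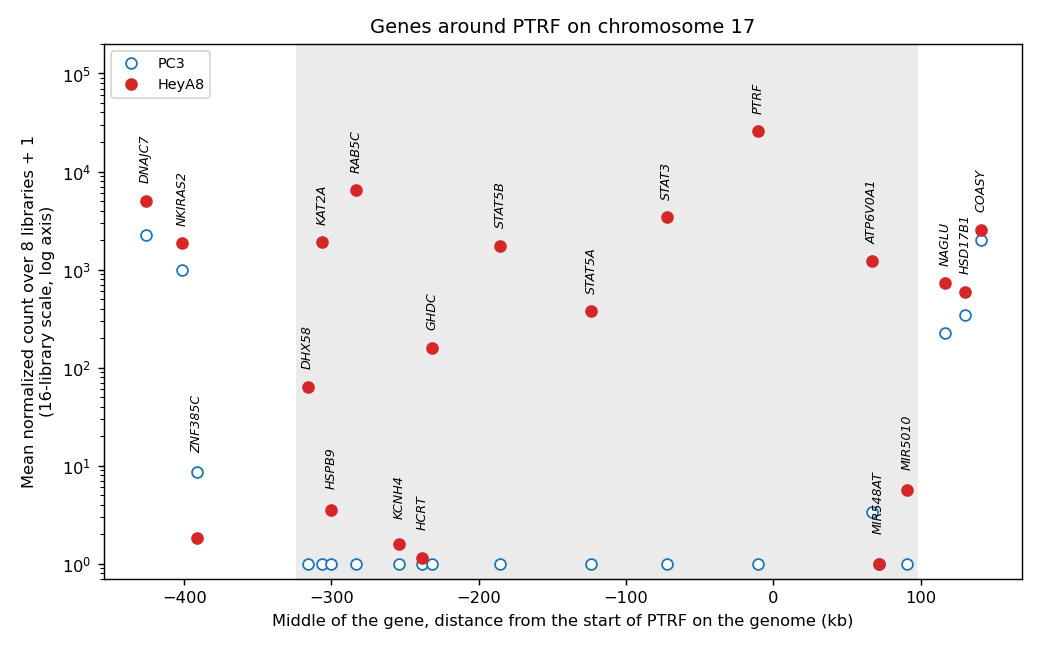
Mean normalized count plus 1 over the 8 libraries of each line (log axis) of the genes around PTRF, by distance in kb from the start of PTRF, with PC3 as open blue and HeyA8 as filled red circles. Inside the grey band, the run of 14 genes, PC3 sits at or near 0, and beyond it the lines lie closer again.

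PRKCDBP, the other absent cavin, lay beside genes that were at or near 0 in both lines on its left side only. Around PRKCDBP, chosen for this look after its values were seen, SMPD1, the next gene on the right, had 198 to 1173 counts in PC3, APBB1 had 700 to 942 and FAM160A2, on the left, 744 to 1039, while between FAM160A2 and PRKCDBP CCKBR was at 0 in both lines and CNGA4 had at most 4 counts in PC3 and 1 in HeyA8. By the criterion of 10 or fewer counts in every PC3 library, CNGA4, CCKBR and PRKCDBP thus also form a stretch, of which PRKCDBP alone was counted above that level in HeyA8. Around EHD2, also chosen afterwards, GLTSCR1 had 176 to 364 counts in PC3 and GLTSCR2 804 to 1697. The measure fixed for likeness to PTRF was 0 counts in all PC3 libraries and then the mean in HeyA8, not scaled to length. By it PTRF itself ranked first, followed by RAB5C (mean of 6432 normalized counts in HeyA8), NRIP3 (3745), STAT3 (3419), TSPAN14 (3190) and KAT2A (1912). RAB5C, STAT3 and KAT2A belong to the run on chromosome 17.

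siGGGGGC carries a seed that pairs with the letters GCCCCC in a transcript. In the RefSeq set of mature human miRNAs (GRCh38.p14), bases 2 to 7 of 2 miRNAs spell the same seed, shown here in capitals because the siRNA was built around it.
hsa-miR-1237-5p: cGGGGGCggggccgaagcgcg
hsa-miR-4488: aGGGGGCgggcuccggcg
The 3′ UTR of each caveola gene was searched for GCCCCC on the transcript strand, taking from GENCODE release 44 the transcript with the longest 3′ UTR. Only EHD2 and PTRF held it. EHD2 had 7 matches in 1702 bases and PTRF 6 in 2238 bases, whereas CAV1, CAV2, SDPR, PRKCDBP and PACSIN2 had 0. A match flanked by T before and A after pairs with guide base 8 and faces guide base 1 and is called an 8mer. With the T alone it is a 7mer-m8, with the A alone a 7mer-A1 and with neither a 6mer. EHD2 held 2 8mers, 2 7mer-A1, 1 7mer-m8 and 2 6mers, and PTRF 1 8mer and 5 6mers. Some of the matches are shown 5′ to 3′ on the transcript strand (hg38), with GCCCCC in capitals: the 3 8mers, the 7mer-m8, 1 of the 2 7mer-A1, and the 6mer next to the 8mer of PTRF for comparison.
EHD2 match 3 (chr19:47742085-47742114, plus strand, 7mer-A1): tgctcggggaaaGCCCCCaattctgcccac
EHD2 match 4 (chr19:47742165-47742194, plus strand, 8mer): ttttttgtttttGCCCCCaattctgcccat
EHD2 match 5 (chr19:47742224-47742253, plus strand, 8mer): ttttttgtttttGCCCCCagttctgtccac
EHD2 match 6 (chr19:47742633-47742662, plus strand, 7mer-m8): ctctgatactgtGCCCCCttggagatattt
PTRF match 5 (chr17:42404210-42404239, minus strand, 8mer): aaggggatccctGCCCCCatgggaggcccc
PTRF match 6 (chr17:42404197-42404226, minus strand, 6mer): cccccatgggagGCCCCCtactagaaggac
The windows of EHD2 matches 4 and 5 were equal at 27 of 30 bases, so these neighbouring sites share much of their sequence. All 13 matches lay inside the gene bounds used for counting. In PC3, 13382 tested genes had an annotated protein-coding transcript, and any without a 3′ UTR counted as holding 0 matches. Of the 13382, 32.6% held at least 1 GCCCCC, 1.16% at least 6 and 0.687% at least 7. A match is a description of letters and was not tested as a binding site.

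**Figure D3:**
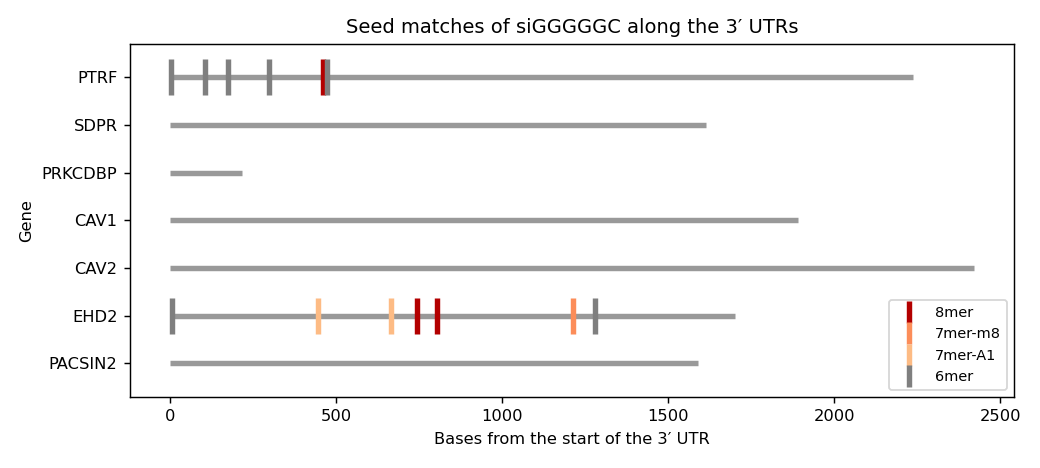
Positions of GCCCCC (bars) along the annotated 3′ UTRs (grey lines, bases from their start) of the 7 genes, coloured by the kind of match. EHD2 carries 7 matches spread over its 3′ UTR, PTRF 6 near the start, and the other 5 genes 0.

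After siGGGGGC, EHD2 had the lowest log2 change of the caveola genes in both lines, and passed the test in PC3. In HeyA8 it had 583 normalized counts at 24 h and 433 at 48 h, on the scale fitted within the line, against 4343 and 4832 after siNT1, 3479 and 3630 in mock cells, and 5371 and 4581 after siCAG. Both siGGGGGC libraries thus lay below all 6 others, at 13.4% of siNT1 at 24 h and 8.96% at 48 h. The fitted change was −3.19 on the log2 scale (SE 0.26), the 6th lowest of 13872 genes, with an adjusted p of 0.0815 by edgeR's quasi-likelihood test with Benjamini-Hochberg adjustment. No gene passed 0.05 in this comparison (0% of 13872 called by edgeR), although 1352 had an unadjusted p under 0.05 and DESeq2 called 318 (2.29%), EHD2 among them. In PC3, where EHD2 was scarce from the start, the counts were 2 and 6 after siGGGGGC against 30 and 22 after siNT1, 23 and 26 in mock cells and 24 and 24 after siCAG. The siGGGGGC libraries were again the lowest of the 8. EHD2 fell by 2.68 on the log2 scale in PC3 (SE 0.58, adjusted p = 0.0335 by edgeR), a call that rests on few counts. In the 4 libraries alone the log2 change was −2.68 with an adjusted p of 0.0760 by edgeR. A filter of at least 1 CPM in 2 libraries removed EHD2. Without the 24 h siNT1 library its adjusted p was 0.190, without the 48 h siNT1 library 0.199 and without the 24 h siGGGGGC library 0.0568, at log2 changes of −2.32, −3.05 and −2.04. Leaving out the 24 h or the 48 h siNT1 library left 0% of all genes called by edgeR. The responses of EHD2 in the lines differed by 0.50 (PC3 minus HeyA8, log2, SE 0.59, adjusted p = 0.909 for the interaction by edgeR), a difference within its error.

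PTRF could be followed in HeyA8 only. It had 20208 and 11978 normalized counts after siGGGGGC at 24 and 48 h, 32317 and 29918 after siNT1, 25143 and 25286 in mock cells and 26192 and 17248 after siCAG. The siGGGGGC libraries lay below every siNT1 and mock library but overlapped the siCAG pair. At 24 h PTRF stood at 62.5% of siNT1 and at 48 h at 40.0%. The fitted log2 change was −0.99 (SE 0.25), and its adjusted p of 0.303 by edgeR did not pass the threshold. In PC3 PTRF and PRKCDBP had no counts and were not tested, so that 5 of the 7 genes entered the tests there and 7 of 7 in HeyA8.

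PACSIN2 was higher after siGGGGGC, and passed the test in PC3. In PC3 it had 2017 and 2355 normalized counts after siGGGGGC, 1422 and 1231 after siNT1, 1692 and 1649 in mock cells and 1461 and 1735 after siCAG. The siGGGGGC pair was above the 6 other libraries. PACSIN2 rose by 0.72 on the log2 scale against siNT1 (SE 0.17, adjusted p = 0.0429 by edgeR), and with mock as the control the difference was 0.39 and was not called. The adjusted p by edgeR was 0.0553 without the term for time and 0.118 in the 4 libraries alone, each at a log2 change of 0.72. Without the 24 h siNT1, the 48 h siNT1 or the 48 h siGGGGGC library the adjusted p of PACSIN2 was 0.157, 0.375 and 0.106, with log2 changes of 0.89, 0.55 and 0.56. In HeyA8 the values were 2136 and 2839 after siGGGGGC, 1724 and 1459 after siNT1, 1745 and 1780 in mock cells and 1782 and 1387 after siCAG, again with the siGGGGGC pair on top. Its log2 change in HeyA8 was 0.65 (SE 0.26, adjusted p = 0.498 by edgeR). The interaction for PACSIN2 was 0.06 (log2, SE 0.32, adjusted p = 1).

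Thus after siGGGGGC 1 of the 5 tested caveola genes fell and 1 rose in PC3, against 9.67% of all 15136 tested genes called in PC3, 908 lower and 555 higher. The median log2 change of the 5 was 0.14, beside 0.00 over all genes. In HeyA8 none of the 7 passed, and their median was −0.29 beside 0.00 over all genes. An unadjusted p under 0.05 by edgeR was found for 3 of the 7 (EHD2, PTRF and PACSIN2), beside 1352 of all 13872 tested genes. In PC3, 92 tested genes, EHD2 among them, held at least 7 GCCCCC matches, the number found in EHD2. Of these, 25.0% were called lower. The share was 29.0% with at least 6 matches, 10.2% with at least 1, and 4.39% of the 9021 genes with 0. In HeyA8 no gene was called, so the share was bound to be 0% in each class and says nothing about the matches. The median log2 change in HeyA8 was −0.56 with at least 7 matches and −0.63 with at least 6. It was −0.10 with at least 1 and 0.05 with 0. The part of the matches in the calls and changes was not tested.

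**Figure D4:**
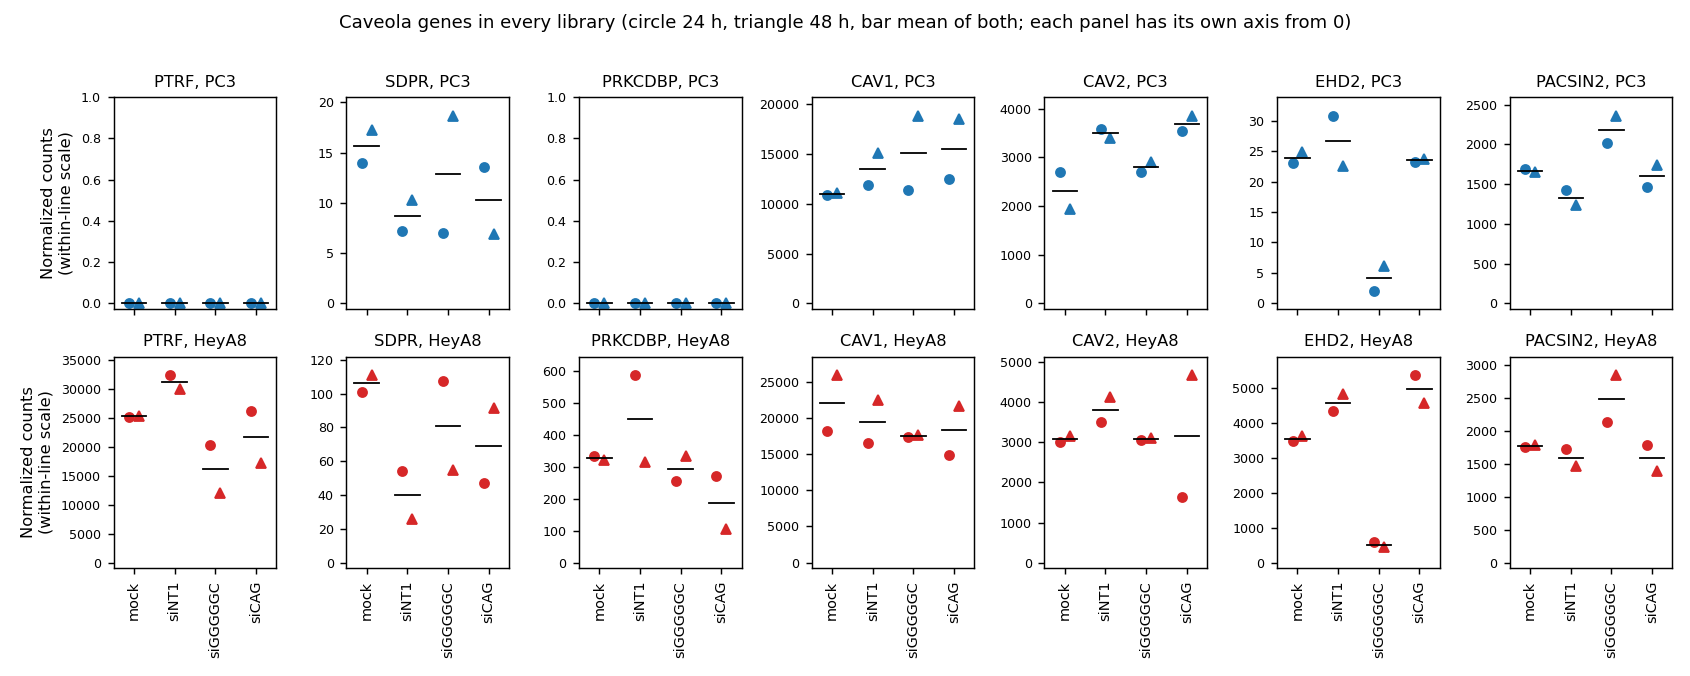
Normalized counts (within-line scale, each axis from 0) of the 7 genes in the 16 libraries, PC3 above and HeyA8 below, with circles for 24 h, triangles for 48 h and bars for their mean. The siGGGGGC pair is lowest for EHD2 and highest for PACSIN2 in both lines, and PTRF and PRKCDBP are flat at 0 in PC3.

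Neither caveolin was called after siGGGGGC. CAV1 had 11379 and 18803 normalized counts in PC3 against 11879 and 15051 after siNT1, a log2 change of 0.14 (SE 0.18, adjusted p = 0.635 by edgeR). In HeyA8 CAV1 had 17336 and 17619 against 16501 and 22448, a log2 change of −0.13 (SE 0.21, adjusted p = 0.902). The time points went in opposite directions in both lines, and the groups overlapped in HeyA8 and PC3 alike. CAV2 had 2699 and 2898 in PC3 against 3581 and 3405 after siNT1, without overlap, at a log2 change of −0.32 (SE 0.18, adjusted p = 0.262). Mock-treated PC3, however, had only 2699 and 1935, so that against mock the CAV2 difference was 0.28 in the other direction. In HeyA8, CAV2 had 3051 and 3122 against 3500 and 4138, and its log2 change was −0.29 (SE 0.38, adjusted p = 0.870).

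The smaller cavins gave wide errors. SDPR had 7 and 18 counts in PC3 after siGGGGGC and 7 and 10 after siNT1. In HeyA8 it had 108 and 54.5 normalized counts after siGGGGGC, 54.1 and 26.1 after siNT1 and 101 and 111 in mock cells. Both siNT1 libraries and the 48 h siGGGGGC library thus lay below the mock pair. The log2 changes of SDPR against siNT1 were 0.52 (SE 0.64) in PC3 and 1.01 (SE 0.55) in HeyA8, and neither was called. SDPR also overlaps H3F3AP4, a pseudogene on the other strand with up to 1458 counts. The strand setting of the counting is not given in the sources used here, so how reads from the overlap were assigned is not known. PRKCDBP had 255 and 335 normalized counts in HeyA8 after siGGGGGC and 588 and 316 after siNT1, with 336 and 321 in mock cells. Its log2 change was −0.52 (SE 0.44, adjusted p = 0.764 by edgeR), and −0.24 without the 24 h siNT1 library, the highest of the 8.

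siCAG was compared with siNT1 next, and no caveola gene was called in either line. In PC3, where 1.20% of 15136 genes were called by edgeR (176 lower, 6 higher), the 5 tested genes had log2 changes between −0.19 for EHD2 and 0.27 for SDPR. PACSIN2 and CAV1 were at 0.26 (SE 0.17) and 0.19 (SE 0.18). EHD2, with 24 counts in each siCAG library, lay within the range of the siNT1 and mock libraries. None of the 5 had an unadjusted p under 0.05 by edgeR, beside 2037 of all 15136 tested genes.

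In HeyA8, 7.81% of 13872 genes were called after siCAG (684 lower, 399 higher), and none of the 7 was among them by edgeR. PRKCDBP came nearest, with 272 and 105 normalized counts after siCAG against 588 and 316 after siNT1 and 336 and 321 in mock cells. Both siCAG libraries were below the 4 siNT1 and mock libraries, and the log2 change was −1.29 (SE 0.44, unadjusted p = 0.0229, adjusted p = 0.112), while DESeq2, which called 19.2% of all genes here, called it. PTRF had a log2 change of −0.55 (SE 0.24, adjusted p = 0.189). EHD2, at 5371 and 4581 after siCAG against 4343 and 4832, changed by 0.11 (SE 0.24), and PACSIN2 by −0.01 (SE 0.25). CAV2 split by time, with 1638 normalized counts at 24 h and 4677 at 48 h after siCAG, the lowest and the highest of its 8 HeyA8 libraries. Its fitted log2 change of −0.37 (SE 0.39) therefore describes neither time point, and without the 48 h siCAG library it was −1.17 and was called, as were 32.9% of all genes in that fit. SDPR was similar, with 47.1 and 91.3 after siCAG against 54.1 and 26.1 after siNT1. Without the 24 h siCAG library both SDPR, at 1.53, and PRKCDBP, at −1.99, were called, along with 31.5% of all genes. The longest run of CTG triplets in the coding sequence or 3′ UTR of any of the 7 genes was 2.

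siNT1 was set against mock to compare the controls with each other. In PC3, 0.231% of 15136 genes were called by edgeR and none was a caveola gene. CAV2 had the smallest unadjusted p of the 5, 0.0116, with 3581 and 3405 normalized counts after siNT1 against 2699 and 1935, a log2 change of 0.60 (SE 0.18, adjusted p = 0.343). CAV1 differed by 0.27 (SE 0.18) and PACSIN2 by −0.33 (SE 0.17). In HeyA8 no gene was called by edgeR (0% of 13872), and 177 had an unadjusted p under 0.05. DESeq2 called 1 of the 13872 genes there, and none of the 7. SDPR was the 1 caveola gene among the 177, at −1.43 (SE 0.55, adjusted p = 1), with 54.1 and 26.1 against 101 and 111. PTRF, CAV2 and EHD2 were each higher in both siNT1 libraries than in both mock libraries, with log2 changes of 0.30 (SE 0.24), 0.30 (SE 0.38) and 0.37 (SE 0.24). The share of all genes that separate in this way was not worked out, so nothing is read from it. When the 4 libraries were fitted alone, 5 of the 7 were called in this comparison, PTRF, CAV2, SDPR, PRKCDBP and EHD2, and 11.8% of 13298 genes were called in the same fit.

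**Figure D5:**
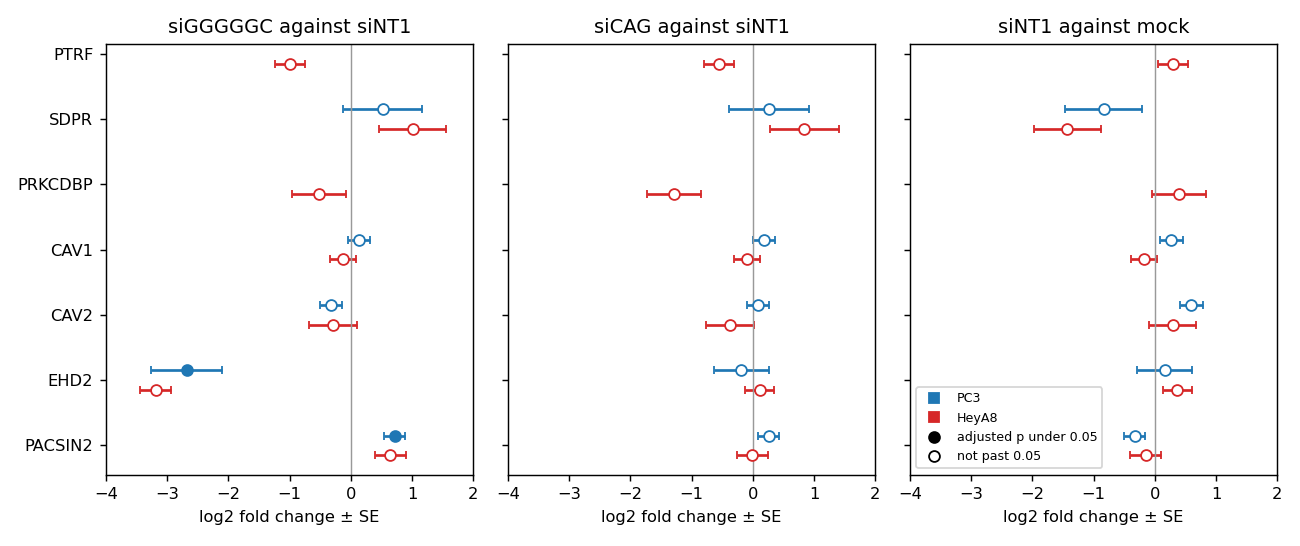
Log2 fold change with its standard error of the 7 genes in the 6 comparisons (PC3 blue, HeyA8 red, filled symbols past an adjusted p of 0.05 by edgeR). EHD2 and PACSIN2 in PC3 after siGGGGGC are the filled points, and EHD2 in HeyA8 has the lowest value.

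A model of all 16 libraries with a line-by-siRNA term asked whether the lines responded unequally, and none of the 5 testable caveola genes was called for either siRNA. For siGGGGGC, 0% of 15887 genes were called by edgeR and 1054 had an unadjusted p under 0.05, with none of the 5 among them. For siCAG, 0.636% were called, and the median gene was at −0.13 in this contrast. CAV1 stood at 0.26 (SE 0.28) for siGGGGGC and 0.18 (SE 0.28) for siCAG, and CAV2 at −0.03 (SE 0.44) and 0.35 (SE 0.44), as log2 differences PC3 minus HeyA8. An adjusted p above the threshold does not show that the lines responded alike.

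A wider list of 22 genes tied to caveolae was read the same way, and 19 of the 22 entered the tests in each line. After siGGGGGC 2 of the 19 were called lower and 0 higher in PC3, where 9.67% of all genes were called, and 0 in HeyA8, where 0% were, so the counts do not set the list apart. SCARB1, the HDL receptor and a resident of caveolae, had 1642 and 1290 normalized counts against 4112 and 3963 after siNT1, and fell by 1.47 on the log2 scale (SE 0.15, adjusted p = 0.00773 by edgeR). PRKCD, protein kinase C delta, the partner that gave PRKCDBP its name, had 1289 and 1187 against 1822 and 1947 and fell by 0.61 (SE 0.15, adjusted p = 0.0485). The adjusted p of SCARB1 was 0.0568 and 0.131 without the 24 h or the 48 h siNT1 library, and that of PRKCD was 0.0503 with RLE scaling, 0.0505 without the filter, 0.0645 without the block, 0.152 in the 4 libraries alone, 0.123 with mock as the control, 0.0861 without the 48 h siGGGGGC library and 0.207 and 0.387 without the 24 h or the 48 h siNT1 library. SCARB1 holds 6 GCCCCC matches in its longest 3′ UTR (4 of them inside the counted gene bounds) and PRKCD 1. DNM1, also with 6, PRKCA, with 4, and PACSIN1, with 3, were not called in PC3, at log2 changes of −0.41, −0.62 and 0.37. In HeyA8, SCARB1 had 2064 and 870 against 5551 and 6335, a log2 change of −2.17 (SE 0.46, adjusted p = 0.241), and PRKCD −0.58 (SE 0.26, adjusted p = 0.521). The median log2 change of the 19 genes was −0.41 in PC3 and −0.30 in HeyA8, beside 0.00 over all genes in each line.

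The closest relatives of EHD2 had log2 changes nearer to 0, a difference that was not tested. EHD1, an ATPase of endocytic recycling with 4 matches in its longest 3′ UTR but 2 in the one of its longest coding transcript, had log2 changes of −0.71 (SE 0.21, adjusted p = 0.0677) in PC3 and −0.84 (SE 0.37, adjusted p = 0.521) in HeyA8. In PC3 its 7158 and 3903 normalized counts after siGGGGGC were below the 9410 and 8176 after siNT1 but lay on either side of the 4929 and 4595 in mock cells, and siNT1 stood above mock by 0.88 (SE 0.21, adjusted p = 0.217), so the mean after siGGGGGC, 5530, was above that of mock, 4762. EHD3, with 1 match, was at 0.42 (SE 0.18) and −0.31 (SE 0.34), and EHD4, with 0 matches, at 0.10 (SE 0.14) and −0.23 (SE 0.32), and none of these was called. After siCAG, 0 of the 19 list genes were called in PC3, beside 1.20% of all genes, and 1 in HeyA8, beside 7.81%. This was EHD3, which rose by 1.50 on the log2 scale (SE 0.33, adjusted p = 0.0451 by edgeR), with 130 and 156 normalized counts after siCAG against 50.2 and 49.9 after siNT1 and 69.2 and 59 in mock cells. Its adjusted p was 0.265 and 0.398 without the 24 h or the 48 h siNT1 library, 0.0758 with mock as the control (log2 change 1.14) and 0.0941 in the 4 libraries alone. Between siNT1 and mock, 0 of the 19 were called in either line, beside 0.231% of all genes in PC3 and 0% in HeyA8.

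Levels of the wider list in the lines are given without a test. PACSIN1, the neuronal paralogue of PACSIN2, had 64 to 130 counts in PC3 and at most 1 in HeyA8. CAV3, the muscle caveolin, was at no more than 1 count in any library, and CD36, a fatty acid receptor, at no more than 10. MURC, the older symbol of the muscle cavin CAVIN4, was similar in the lines, with 30 to 57 counts in PC3 and 13 to 68 in HeyA8. ROR1, a receptor that has been tied to CAVIN1, had 983 to 1534 counts in PC3 and 21 to 330 in HeyA8, and INSR, the insulin receptor, 742 to 2329 and 73 to 337. NOS3, the endothelial nitric oxide synthase, had 3 to 10 counts in PC3, too few to be tested, and 4 to 108 in HeyA8.

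Genes whose counts followed CAV1 most closely were sought among the 10129 others with means over 100 normalized counts in both lines, on log2 values centred within each line over the 16 libraries. GAB2 (Pearson r = 0.82), HERC3 (0.81), MOXD1 (0.79), CHCHD7 (0.79) and SUCLG2 (0.78) headed the order. CAV2, the genomic neighbour of CAV1, came at place 281 with 0.48, and PACSIN2 at place 5292 with −0.06. These values describe 16 libraries that share their treatments and times, and no p is attached to them.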

How the data were processed

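The authors deposited a table of whole-number read counts per gene, with gene bounds and exon lengths. Per the study's methods, ribosome-depleted total RNA was sequenced paired-end and reads were aligned to hg38 with Tophat or STAR. The methods have exonic reads assigned to Ensembl 78 genes with HTSeq. The labels name STAR, HTSeq and hg38, and whether this table was counted on Ensembl 78 was not checked. The strand setting is not given in the sources used here. The deposited counts are not normalized, and the lowest library total was 27937092.

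Within each line, all 8 libraries were fitted with edgeR 4.0.16 in R 4.3.3 (TMM scaling, filterByExpr, quasi-likelihood test, terms for siRNA and time point), with Benjamini-Hochberg adjustment over all genes and calls at an adjusted p under 0.05. Differences between the lines in response were tested as an interaction over 16 libraries. Normalized counts are counts rescaled by TMM, within a line or over 16 libraries as stated. DESeq2 1.42.0 was an alternative. The fits were tested on simulated data. 3′ UTRs came from GENCODE release 44, with 1384 symbols matched through an older symbol and 1940 not matched.

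The members, gene lists and tests were chosen with earlier results of these data known. The text names the 7 genes, the run around PTRF with 3 genes on each side, 5 genes for each likeness, and list genes called or absent in 1 line. CAV2 and PACSIN2 in the likeness to CAV1, the neighbours of PRKCDBP and EHD2, and the list genes EHD1, EHD4, DNM1, PRKCA, MURC, CAV3, CD36, ROR1, INSR and NOS3 fall outside this rule and were chosen after their values were seen. Alternatives were RLE scaling, other filters, no term for time, 4 libraries alone, mock as control and each library left out. No column of another sample was present in the table.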

Additional observations from a re-analysis of the deposited data

How the results depend on the processing

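The order of the lines did not depend on the scaling. PTRF, SDPR, PRKCDBP and EHD2 were more than 4-fold higher in HeyA8 with RLE scaling, with 0.1 or 10 added in place of 1, at 24 or 48 h alone and with siNT1 in place of mock, and the GCCCCC counts of the 7 genes were the same in the transcripts with the longest coding sequence.

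The calls after siRNA depended on the fit. In PC3 after siGGGGGC 2 of the 7 genes were called, against 1 with at least 1 CPM required in 2 libraries (PACSIN2, since EHD2 was filtered out; 10.9% of all genes called), 1 without the time point as a block (EHD2, 4.13%), 0 when the 4 libraries were compared alone (2.99%), 1 with mock as the control (EHD2, 21.1%) and 0 to 1 with each library left out (0% to 23.5%). In HeyA8 after siGGGGGC none was called, against 1 (EHD2) with DESeq2 (2.29% of all genes), without the filter (0.0937%) or without the block (0.0216%), and 3 in the 4 libraries alone (PTRF, EHD2 and PACSIN2, 8.86%). In HeyA8 after siCAG none was called, against 1 with DESeq2 (PRKCDBP, 19.2% of all genes) and 0 to 2 with each library left out, where the fit that gave 2 called 31.5% of all genes. Between siNT1 and mock in HeyA8 the 4 libraries alone gave 5, with 11.8% of all genes. The siCAG interaction gave 0 to 1 with each library left out (CAV2, without the 48 h HeyA8 siCAG library, 6.36% of all genes). Where a fit left a treatment with 1 library, that library was assumed to vary like the others. The causes of these changes were not tested.

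The log2 changes called in the main comparisons kept their sign, and the values that turned theirs were not called there. With mock as the control, those of CAV2 after siGGGGGC became 0.28 in PC3 and 0.0047 in HeyA8, those of SDPR after siGGGGGC −0.31 and −0.42, and those after siCAG −0.57 (SDPR) and −0.067 (PACSIN2) in PC3 and −0.59 (SDPR) in HeyA8. With at least 1 CPM, PACSIN2 after siCAG in HeyA8 was at 0.023. With each library left out, values that crossed 0 ranged, after siGGGGGC in PC3, from −0.12 to 0.32 (CAV1) and −0.37 to 1.08 (SDPR). After siCAG in PC3 they ranged from −0.061 to 0.21 (CAV2), −0.65 to 1.01 (SDPR) and −0.50 to 0.21 (EHD2), and for EHD2 in siNT1 against mock from −0.23 to 0.48. In HeyA8 they ranged, after siGGGGGC, from −0.38 to 0.10 (CAV1) and −1.14 to 0.015 (PRKCDBP), and after siCAG from −1.17 to 0.23 (CAV2), −0.016 to 1.53 (SDPR), −0.073 to 0.28 (EHD2) and −0.24 to 0.18 (PACSIN2). In the siGGGGGC interaction they ranged from −0.017 to 0.47 (CAV1), −0.28 to 0.24 (CAV2), −1.41 to 0.077 (SDPR), −0.58 to 1.12 (EHD2) and −0.26 to 0.39 (PACSIN2), and in the siCAG interaction from −0.24 to 1.09 (CAV2), −1.58 to 0.11 (SDPR) and −0.084 to 0.42 (PACSIN2).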
